A study of Glycine max with 4 samples.

Results

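Transcript levels of 4 soybean genes of phosphocholine and phosphatidylcholine metabolism were followed in leaves after 24 h without phosphate (Pi). They are 4 of the 39505 loci in the deposited expression table. Glyma.08G195000 and Glyma.08G195100 are neighbors on chromosome 8 and are both described as pyridoxal phosphate phosphatase-related. Glyma.08G218900 and Glyma.07G022900 are the only loci in the table described as phospholipid N-methyltransferase. The genes were selected on the very values compared here, their FPKM in Pi-deprived leaves (PDL) and Pi-sufficient leaves (PSL), so their differences between the groups are given as a description and not as a test.

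Both groups were seedlings of the cultivar Williams 82, grown in hydroponics with 0.5 mM KH2PO4 until 18 days and then moved to fresh solution for 24 h. PSL plants stayed at 0.5 mM KH2PO4. PDL plants received 0 mM KH2PO4, with K2SO4 in its place to hold potassium constant, so that sulfate supply differed along with Pi and their effects cannot be told apart. Each library was made from poly(A) RNA of the first trifoliate leaves of 3 pooled plants, with 2 libraries per group (PDL-1, PDL-2, PSL-1 and PSL-2).

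In plants, phosphocholine is made mainly by methylating phosphoethanolamine, is then built into phosphatidylcholine, and can be split by phosphatases of the haloacid dehalogenase (HAD) superfamily into choline and free Pi. In Arabidopsis, the pyridoxal phosphate phosphatase-related description is carried by PECP1, though it need not be limited to that gene. PECP1 is a phosphatase of phosphoethanolamine and phosphocholine that is induced by Pi starvation, and a close relative is PS2, named phosphate starvation-induced gene 2. Arabidopsis phospholipid N-methyltransferase works on intact lipids and adds the last methyl groups that turn partly methylated phosphatidylethanolamine into phosphatidylcholine. Plants short of Pi are known to exchange membrane phospholipids for galactolipids and sulfolipids, which frees Pi from lipid head groups. The substrates of the soybean proteins are not given by the table, and their sequences were not analysed here.

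Levels are the authors' FPKM, the number of sequenced fragments scaled to transcript length and to the mapped total of the library, which can be compared between genes because they are scaled to length. Differences are PDL minus PSL on the log2(FPKM + 0.1) scale, which understates the change of low genes. The study's thresholds were used for calls, an absolute log2 difference of at least 1 with an unadjusted p of at most 0.05, here from limma over the 32686 loci with a mean of at least 0.3 FPKM. Of these loci, 1.14% were called higher and 0.887% lower in PDL (2.03% in either direction), and 8.93% had an unadjusted p of at most 0.05 whatever the size of the difference. Both PDL libraries lay above both PSL libraries at 20.2% of the loci and below them at 21.1%. With 2 libraries against 2, an exact permutation test cannot go below p = 0.333.

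The libraries listed between 35517 and 36536 loci above 0, with a median of 6.07 to 6.10 FPKM over the loci tested. Marker loci were summed by cell type as a description. The 39 loci for light-harvesting proteins and the small subunit of ribulose bisphosphate carboxylase summed to 118749 and 119532 FPKM in PDL against 91301 and 99894 in PSL. The 13 loci of the guard cell list summed to 65.8 and 75.4 FPKM in PDL against 53.1 and 59.8 in PSL. They were picked by words such as stomagen and guard cell and need not all be expressed in guard cells. The 61 loci of dividing cells summed to 293 and 300.4 in PDL against 277 and 274 in PSL. These 3 lists were thus somewhat higher in both PDL libraries, and their part in the results below was not tested. The sums of the root (15 loci), cuticle (27 loci) and xylem (57 loci) lists overlapped between the groups, between 341 and 413, between 591 and 1023, and between 65.1 and 112 FPKM. No marker locus was at 0 in all 4 libraries, but only detected loci were deposited, so this is no test of leaf identity. Calls among the marker loci were 2 of 13 higher in the guard cell list, 1 of 15 lower in root, and 1 higher and 1 lower of 57 in xylem. Over all tested loci, 1.14% were called higher and 0.887% lower.

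With the settings above, all 4 genes passed the thresholds, 3 of them higher and 1 lower in PDL, and for none of them did a PDL value fall within the PSL range. This follows from how the genes were chosen and is read no further against the shares above.

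Glyma.08G195100, the more abundant of the phosphatase-related neighbors, occupies bases 15713538 to 15715460 of chromosome 8 in the Gmax2.0 build. Its transcripts reached 12.1 and 7.58 FPKM in PDL against 1.67 and 2.40 in PSL. The lower PDL library was thus 3.16 times the higher PSL library, and the spread inside PDL (9.82 ± 3.17 FPKM, mean ± SD, n = 2) was wider than inside PSL (2.03 ± 0.520). The ratio of the group means was 4.83, and the log2 difference was 2.20 (standard error 0.32). By group mean the gene stood at the 38.5th percentile of all loci in PSL and at the 68.0th in PDL. In RNA from whole leaves, more transcript per cell and more cells that carry it cannot be told apart.

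Glyma.08G195000, its neighbor 2360 bases away (chromosome 8 from 15709584 to 15711177), was far weaker. It had 0.616 and 0.797 FPKM in PDL, whereas PSL-1 and PSL-2 both list it at 0, so no fold is given. The study's list of differentially expressed genes found only in PDL does not hold Glyma.08G195000. Even in PDL its level (0.707 ± 0.128 FPKM) was below that of its neighbor in any library. Of the 28296 loci at or above 0.616 FPKM in both PDL libraries, 52 (0.184%) were listed at 0 in both PSL libraries. Zeros at this level also occur singly, since 347 loci were at 0 in 1 library and at or above 0.616 FPKM in the other 3. The table gives no read counts, and whether the zeros are absence or failed estimates was not tested.

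**Figure D1:**
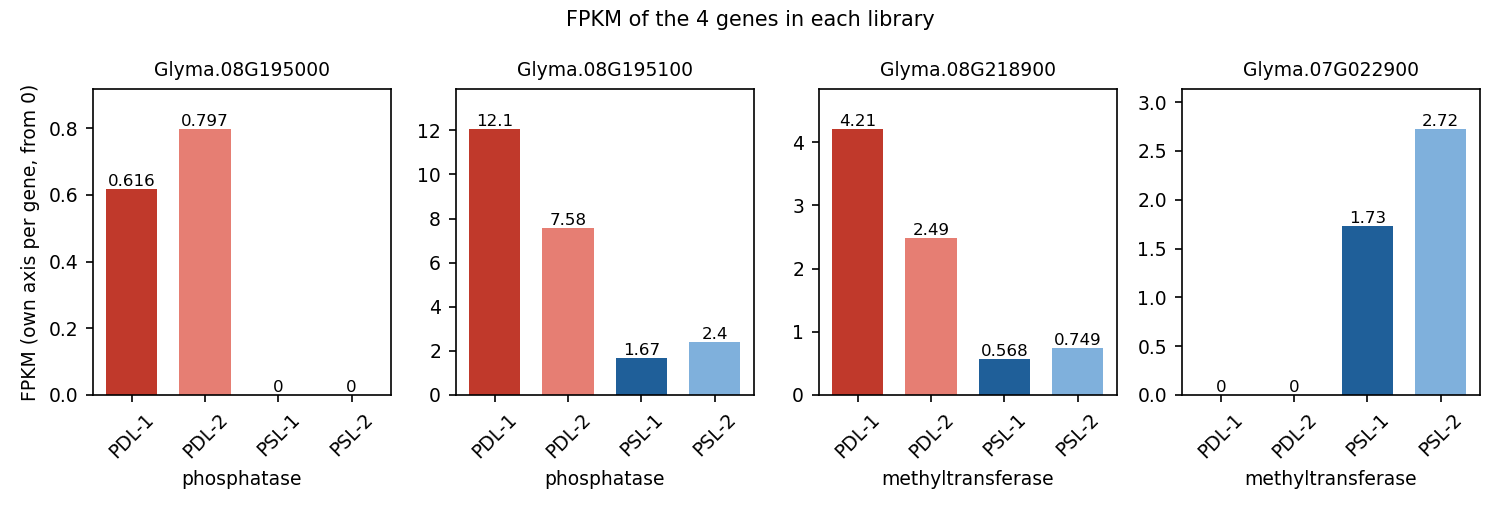
FPKM of each gene in the 4 libraries, with PDL libraries in red and PSL libraries in blue, a bar per library, and a separate axis from 0 for each gene. The phosphatase-related Glyma.08G195000 and Glyma.08G195100 and the methyltransferase Glyma.08G218900 were higher in both PDL libraries, while the methyltransferase Glyma.07G022900 was listed at 0 in both.

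The phosphatase-related genes on chromosome 8 form a row of 3 that spans 10271 bases. The remaining gene, Glyma.08G194900, which carries the same description, lies 2605 bases before Glyma.08G195000. It had 0.454 and 0 FPKM in PDL against 0.432 and 0.561 in PSL. It did not pass, with a log2 difference of −1.33 (standard error 1.10, limma adjusted p = 0.731), and its groups overlapped. In PDL the FPKM thus increased along the row toward Glyma.08G195100, whereas in PSL the middle gene was the one listed at 0.

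Chromosome 7 holds a row of the same build, 10805 bases long, with Glyma.07G011700, Glyma.07G011800 and Glyma.07G011900 in that order. The genes around both rows share their descriptions, a multidrug resistance-associated protein 6 gene before the row and a protein phosphatase 2A regulatory subunit and DOF zinc finger protein 1 genes after it. Glyma.07G011700 is described as phosphate starvation-induced gene 2 and was the most abundant gene of either row, at 31.1 and 15.8 FPKM in PDL against 12.0 and 25.0 in PSL. Its groups overlapped, and its log2 difference of 0.35 (standard error 0.50, limma adjusted p = 0.840) did not pass. Glyma.07G011800 had 1.54 and 0.179 FPKM in PDL against 0.337 and 0 in PSL, so that PDL-1 carried most of its signal (limma adjusted p = 0.722). Glyma.07G011900 stayed between 0.113 and 0.562 FPKM in all libraries.

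Summed over the 3 genes, the chromosome 8 row had 13.1 and 8.37 FPKM in PDL against 2.10 and 2.96 in PSL. The chromosome 7 row had 32.7 and 16.6 in PDL against 12.5 and 25.6 in PSL. The groups were apart in the first row and overlapped in the second, but the first row holds genes chosen for this difference and the contrast between the rows was not tested. Just beyond the rows, DOF zinc finger protein 1, a transcription factor gene, rose on chromosome 7 (Glyma.07G012100, 7.53 and 11.5 FPKM in PDL against 3.64 and 3.96 in PSL, limma adjusted p = 0.471). It was named after its values were seen, and the study had already listed it as higher from these same libraries. Its counterpart on chromosome 8, Glyma.08G195300, had 1.79 and 4.89 in PDL against 2.43 and 1.49 in PSL and did not pass. The phosphatase 2A subunit genes Glyma.08G195200 and Glyma.07G012000, the first loci after the rows, were between 12.9 and 14.7 and between 9.76 and 11.6 FPKM in all libraries.

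**Figure D2:**
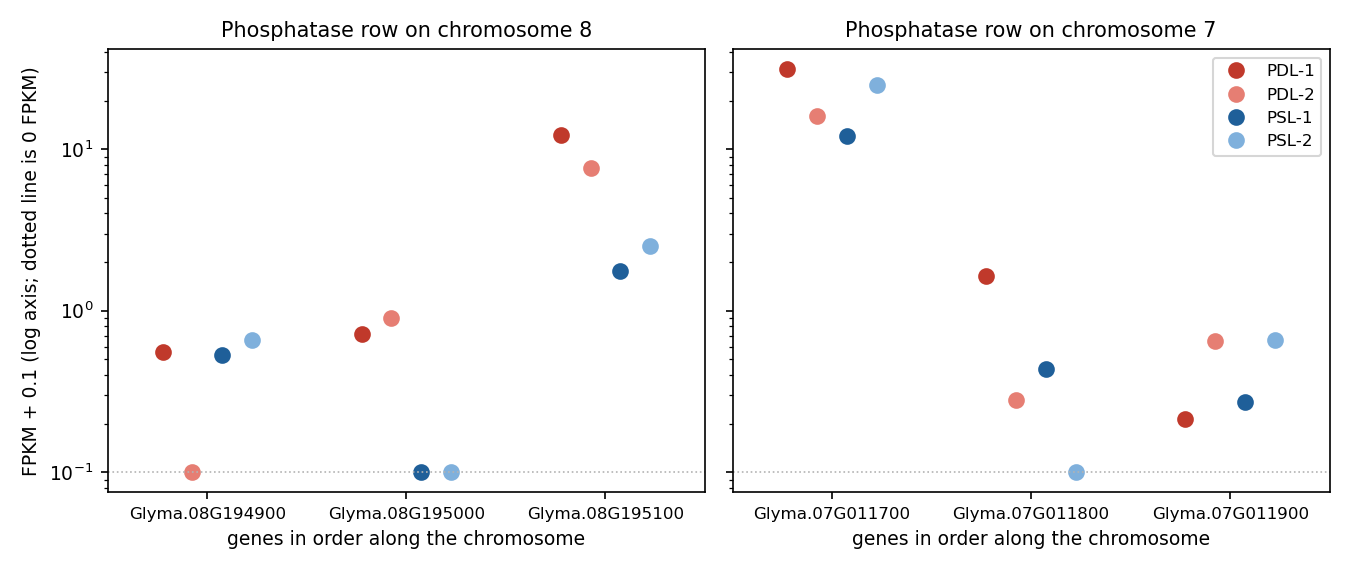
FPKM plus 0.1 on a log axis for the 3 genes of each phosphatase row in order along the chromosome, one point per library, with the dotted line at 0 FPKM. In the chromosome 8 row the PDL points (red) of Glyma.08G195000 and Glyma.08G195100 lie above the PSL points (blue), while red and blue points mix for Glyma.08G194900 and for every gene of the chromosome 7 row.

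In all, 8 loci carry the pyridoxal phosphate phosphatase-related description, and 5 of the 6 outside the chosen genes were abundant enough to test. None of the 5 passed in limma, and 0 had an unadjusted p of at most 0.05. Over all loci 2.03% were called and 8.93% had such a p, so 5 loci are too few to read this further. Glyma.08G029600, elsewhere on chromosome 8, stood at 5.70 and 5.17 FPKM in PDL against 4.58 and 3.54 in PSL (log2 difference 0.42, standard error 0.19, limma adjusted p = 0.608). Glyma.13G351600 had 5.37 and 1.54 FPKM in PDL against 4.26 and 8.25 in PSL, and Glyma.15G023000 was at most 0.201 FPKM in any library and not tested. Without the chosen genes, the 6 loci summed to 13.2 and 7.64 FPKM in PDL against 9.88 and 13.0 in PSL, which overlap. Glyma.08G195100 alone made up 46.7% and 47.3% of the FPKM of the 8 loci in PDL and 14.4% and 15.6% in PSL.

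The vitamin B6 pathway, to which KEGG assigns these phosphatases, holds 19 other loci, of which 18 were tested. None passed in limma and 4 had an unadjusted p of at most 0.05 (8.93% of all loci did), while their median log2 difference was 0.19 against −0.01 over all loci tested. Its biosynthetic genes were abundant. Pyridoxine biosynthesis 2, the glutaminase side of vitamin B6 synthesis, had 72.6 and 90.4 FPKM in PDL against 55.9 and 62.9 in PSL in Glyma.03G060100 (log2 difference 0.45, standard error 0.16, limma adjusted p = 0.549). The loci of highest mean, Glyma.15G087200 and Glyma.13G225000, described as aldolase-type TIM barrel proteins, had log2 differences of 0.20 and 0.20 with overlapping groups. Glyma.03G060100 was named outside the selection rule given below.

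Both phospholipid N-methyltransferase genes differed between the groups, in opposite directions. Glyma.08G218900, at bases 17796904 to 17798644 of chromosome 8, was measured at 4.21 and 2.49 FPKM in PDL against 0.568 and 0.749 in PSL. Its lower PDL library was 3.32 times its higher PSL library, and the ratio of the means (3.35 ± 1.22 against 0.659 ± 0.128, n = 2) was 5.09. The log2 difference was 2.15 (standard error 0.36) and fell to 1.36 with a pseudocount of 1, which weighs on genes below 1 FPKM. In PSL the gene stood at the 24.9th percentile of all loci and in PDL at the 46.8th.

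Glyma.07G022900, on chromosome 7 from 1759881 to 1761572, was listed at 0 in both PDL libraries and had 1.73 and 2.72 FPKM in PSL (2.23 ± 0.703). The study had already listed this gene, from these same libraries, as found only in PSL. No fold is given against the zeros. Of the 23770 loci at or above 1.73 FPKM in both PSL libraries, 31 (0.130%) were listed at 0 in both PDL libraries. Another 188 loci were at 0 in a single library and at or above that level in the other 3.

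Taken as a pair, the methyltransferase genes had 4.21 and 2.49 FPKM in PDL against 2.30 and 3.47 in PSL. These sums overlapped between the groups, with means of 3.35 ± 1.22 and 2.89 ± 0.831 FPKM (ratio 1.16). With 2 libraries per group and genes chosen on these values, the overlap does not show that the total was the same. The chromosome 8 copy made up 100% of the sum in both PDL libraries and 24.7% and 21.6% in PSL. The genes share a description and may share sequence, the read mapping allowed several alignments per read, and the division of reads between the copies could not be checked from FPKM. How far this touches the level of each copy was not tested.

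The copies lie in matching stretches of chromosomes 8 and 7 that run in opposite order. Within 6 loci on either side, 9 descriptions occur near both genes, from a vacuolar ATP synthase subunit D and a WRKY DNA-binding protein 40 on one side to an uridylyltransferase-related protein and Low PSII Accumulation 3 on the other. For 6 of these descriptions both copies were tested, and 0 of these genes were called in limma (1 had an unadjusted p of at most 0.05). Over all loci 2.03% were called and 8.93% had such a p. The nearest neighbors are genes of NDH-dependent cyclic electron flow 1, a part of the photosynthetic NDH complex. They lie 410 bases from Glyma.08G218900 and 297 bases from Glyma.07G022900. On chromosome 8 this neighbor (Glyma.08G218800) had 32.5 and 36.1 FPKM in PDL against 29.4 and 34.9 in PSL, and on chromosome 7 (Glyma.07G023000) 43.5 and 38.7 in PDL against 28.7 and 31.1 in PSL. Both were thus many times more abundant than the methyltransferase beside them in every library.

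The methyltransferase pair was chosen for the opposite differences of its copies, which fixes the wide range of its chromosome 8 share, so the shares of these 6 pairs are set beside it as a description. The chromosome 8 share ran from 42.8% to 52.9% over the 4 libraries for NDH-dependent cyclic electron flow 1, from 48.9% to 53.1% for the vacuolar ATP synthase subunit and from 92.3% to 94.5% for Low PSII Accumulation 3. The widest range among the 6 was that of WRKY DNA-binding protein 40, from 18.5% to 34.9%. The share of the Acyl-CoA N-acyltransferase pair next to the methyltransferases, which was too low to test (at most 0.331 FPKM for either copy in any library), ran from 49.7% to 100%, so a wide range was also seen in a pair well below the methyltransferases in level.

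**Figure D3:**
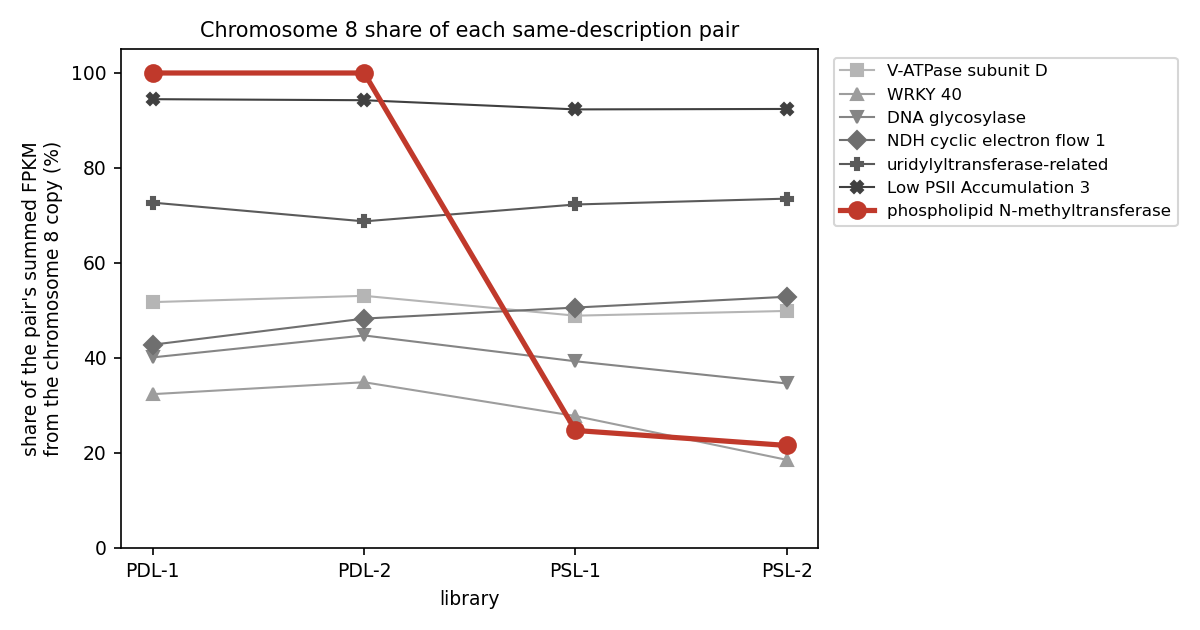
Share of a pair's summed FPKM that came from the chromosome 8 copy, in percent on the y axis and by library on the x axis, for the methyltransferases (red) and 6 neighboring pairs of the same description (grey). The methyltransferase share was 100% in both PDL libraries and 24.7% and 21.6% in PSL, while the grey lines span 2.15 to 16.3 percentage points.

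Ordered by level, Glyma.08G195100 led in PDL, followed by Glyma.08G218900, Glyma.08G195000 and Glyma.07G022900, and no neighboring genes in that order overlapped. In PSL, Glyma.07G022900 and Glyma.08G195100 came first, and their ranges (1.73 to 2.72 and 1.67 to 2.40 FPKM) overlapped, so their order is not resolved. Glyma.08G218900 followed at 0.568 and 0.749 FPKM and Glyma.08G195000 was listed at 0.

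The profiles of Glyma.08G195100 and Glyma.08G218900 over the 4 libraries were nearly parallel. Likeness was measured as the Euclidean distance between the deviations of log2(FPKM + 0.1) from each gene's mean. For these genes it was taken over the 26345 tested and described loci above 0 in every library, and for the members listed at 0 over 27092 tested and described loci without that demand. Each was the closest locus to the other, at a distance of 0.133. Both were chosen for being higher in PDL on these same values, so their likeness is a description and supports nothing further. In both, PDL-1 was the highest library, followed by PDL-2, PSL-2 and PSL-1. The next closest to both were Glyma.11G185300, a fatty acyl-CoA reductase-related gene (32.0 and 20.3 FPKM in PDL against 4.43 and 5.13 in PSL), and Glyma.08G340600, of the Cox19 family (31.9 and 21.6 in PDL against 6.04 and 7.69 in PSL). Nearest to Glyma.08G195000 were Glyma.19G246600 (SSXT family, distance 0.122), Glyma.16G011900 (SAUR-like) and Glyma.03G182200 (Translin family). Nearest to Glyma.07G022900 were Glyma.08G152300 (thioredoxin superfamily, distance 0.0725), Glyma.10G056300 (SAUR-like) and Glyma.11G133900 (MATE efflux family). The genes near each of these members have their zeros in the same libraries, which sets most of the likeness, and 4 libraries are too few to rank such neighbors firmly.

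In the lists around phosphatidylcholine metabolism, the share of loci called higher was above that over all loci, but it rests on few loci. Word patterns on the descriptions gave 108 further loci. They cover phosphatidylcholine turnover, methyl supply, choline use, loci of the phosphatase description, and galactolipid and sulfolipid synthesis. Of 94 tested, 4 (4.26%) were higher and 1 (1.06%) lower in PDL. The galactolipid and sulfolipid list held 2 of the 4 higher loci. The background was 1.14% and 0.887% over all loci. The median log2 difference of the 94 was 0.03, 78 lay within 0.5 of 0, and 0 had a limma adjusted p under 0.05.

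No tested locus of the steps that build phosphatidylcholine was called. Over all loci 2.03% were called and 8.93% had an unadjusted p of at most 0.05, so lists of 8, 2 and 5 loci are too short to read this further. None of the 8 loci for CTP:phosphocholine and CTP:phosphoethanolamine cytidyl transferases, which activate phosphocholine and phosphoethanolamine, passed in limma (1 had an unadjusted p of at most 0.05), and their log2 differences lay between −0.27 and 0.37. The most abundant, Glyma.02G309900, had 31.0 and 32.6 FPKM in PDL against 32.3 and 32.8 in PSL. Both aminoalcoholphosphotransferase genes of the last step lay within 0.1 of 0 on the log2 scale. Glyma.12G081900 had 11.1 and 11.2 FPKM in PDL against 10.3 and 11.1 in PSL. For the 5 loci of phosphatidylserine synthesis and decarboxylation the log2 differences lay between −0.20 and 0.66, and 0 had an unadjusted p of at most 0.05 in limma.

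No description named a phosphoethanolamine N-methyltransferase or a choline kinase. The loci that KEGG places in glycerophospholipid metabolism were therefore searched for other methyltransferases and for the protein kinase superfamily, to which choline kinases are assigned, after the values had been seen. The other methyltransferases, Glyma.05G246500 and Glyma.07G102700, had 16.8 and 19.8 FPKM in PDL against 18.5 and 17.9 in PSL, and 15.7 and 16.1 in PDL against 13.7 and 15.9 in PSL. Both were several times more abundant than the phospholipid N-methyltransferase pair and their groups overlapped. Of 7 protein kinase superfamily loci, 6 were tested and their log2 differences lay between −0.30 and 0.09. Among all 127 tested loci of glycerophospholipid metabolism outside the chosen genes, 1 was called (0.787%, against 2.03% of all loci) and 8 had an unadjusted p of at most 0.05 in limma, which 8.93% of all loci had.

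The methyl groups come from S-adenosylmethionine, whose cycle held 18 tested loci with a median log2 difference of 0.00. S-adenosylmethionine synthetase loci reached 944 and 887 FPKM in PDL against 895 and 937 in PSL (the merged locus Glyma.17G039000,Glyma.17G039100). Glyma.19G182400, an adenosine kinase 2 gene that clears a by-product of methylation, fell, with 0.481 and 0.681 FPKM in PDL against 1.45 and 1.37 in PSL (log2 difference −1.17, standard error 0.34, limma adjusted p = 0.527). That call was lost with a pseudocount of 1 (−0.61), under the replicate block (−1.17), and without PDL-1 (−0.95), PSL-1 (−1.13) or PSL-2 (−1.20). Choline transporter and oxidation loci (9 tested) stayed between −0.32 and 0.47, with 0 at an unadjusted p of at most 0.05 in limma, against 8.93% of all loci.

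The 4 loci called higher belonged to the lists of phospholipases, glycerophosphodiester phosphodiesterase, and galactolipid and sulfolipid synthesis. Glyma.20G238000, for phospholipase D P1, which cuts the head group from phosphatidylcholine to leave phosphatidic acid, had 1.49 and 1.03 FPKM in PDL against 0.338 and 0.334 in PSL (log2 difference 1.62, standard error 0.42, limma adjusted p = 0.511). It was the only one of 28 tested phospholipase C and D loci to pass (3.57%, against 2.03% of all loci), and the call was lost with a pseudocount of 1 (0.75) and without PDL-1 (1.38). The study, using Cuffdiff on these libraries, also listed as higher a phospholipase D alpha 4 gene (Glyma.08G194100) and a phospholipase A2 gene (Glyma.01G002400). In limma their log2 differences were 1.02 (standard error 0.65) and 0.99 (standard error 0.26), and neither was called. Glyma.19G098500, described as senescence-related gene 3, a glycerophosphodiester phosphodiesterase in Arabidopsis, was called higher at a log2 difference of 3.08 (standard error 0.63, limma adjusted p = 0.471). It had 2.53 and 1.24 FPKM in PDL against 0.201 and 0.064 in PSL. With PSL this low, the difference was 1.32 with a pseudocount of 1 and 3.83 with 0.01. In galactolipid and sulfolipid synthesis, 2 of 15 tested loci were called higher (13.3%, against 1.14% of all loci). Both are for sulfoquinovosyldiacylglycerol 2, which completes sulfolipid. They are Glyma.03G078300, with a log2 difference of 3.11 (standard error 0.60), and Glyma.01G113000, with 1.39 (standard error 0.19). Glyma.03G078300 had 2.00 and 1.12 FPKM in PDL against 0.125 and 0.053 in PSL. Its difference was 1.21 with a pseudocount of 1 and 4.03 with 0.01, so its size is poorly fixed. The third locus of that description, Glyma.18G197600, did not pass, at a log2 difference of 0.24 (standard error 0.11, limma adjusted p = 0.607). Sulfoquinovosyldiacylglycerol 1 loci Glyma.19G133100 and Glyma.03G131100 also did not pass, each at 0.85 (standard errors 0.14 and 0.20), with both PDL libraries above both PSL libraries. Over the list, 4 of 15 had an unadjusted p of at most 0.05 in limma (8.93% of all loci). Its log2 differences ran from −0.15 to 3.11. Glyma.03G078300 and Glyma.20G238000 had already been singled out by the study from these libraries, and their calls are not independent evidence.

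**Figure D4:**
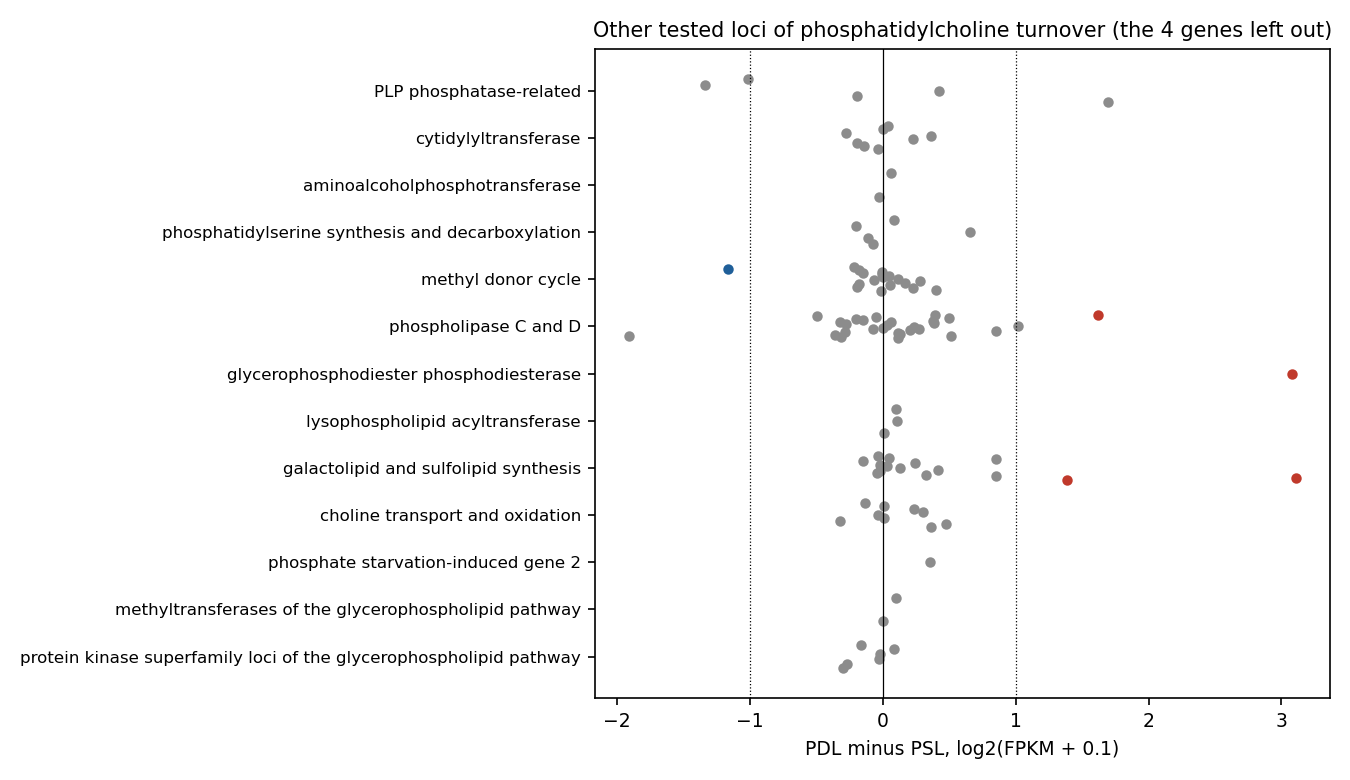
PDL minus PSL difference of log2(FPKM + 0.1) for the tested loci of each list, with the 4 chosen genes left out. Points are red where called higher, blue where called lower and grey where not called. Most points lie close to 0, and the dotted lines mark a log2 difference of 1 in either direction.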

How the data were processed

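Leaf RNA of 2 PDL and 2 PSL libraries was sequenced from both fragment ends. Per the study's methods, the authors mapped quality-filtered reads (FASTX-toolkit, FastQC) to Gmax2.0 by TopHat on a Bowtie2 index, allowing several alignments per read, and used Cufflinks for abundance and Cuffdiff for the group comparison. Versions are not given in the sources used here. The values used are the authors' deposited FPKM per library. The FPKM pooled per group, the log2 fold change, the test score and the p-value and q-value of Cuffdiff deposited by the authors were not used. The depth behind each FPKM is unknown, so no counting interval is given.

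Of 39505 loci, 722 are merged and 919 unannotated. The limma test (version 3.58.1) took log2(FPKM + 0.1) of the 32686 loci with a mean of at least 0.3 FPKM in R 4.3.3 (mean-variance trend, no covariate), with Benjamini-Hochberg adjustment over all loci. The fit was tested on simulated data. Sums, distances and plots used Python 3.11.15 with pandas 2.3.3, numpy 2.4.6, matplotlib 3.10.9 and scipy 1.17.1.

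The genes and lists were chosen with earlier results of these data known. Named are the 4 genes, loci of the same description, called loci or the 2 most abundant loci of a list, the 3 loci on each side of a member, and the 3 loci most like it. Genes outside this rule are marked, were listed by the study or belong to the matching rows on chromosome 7. The uncalled sulfoquinovosyldiacylglycerol loci were added beside the called ones. Alternatives were pseudocounts of 1 and 0.01, a filter at 1 FPKM and none, quantile normalization, median centring, no trend, a replicate block, single annotated genes and leaving out each library. Gene names in the deposited table matched 0 of 59048 RefSeq entries, so RefSeq was left out.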

Additional observations from a re-analysis of the deposited data

How the results depend on the processing

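The log2 difference of Glyma.08G195100 lay between 1.81 and 2.53 under all 13 alternatives, and between 1.87 and 2.53 when a library was left out. That of Glyma.08G218900 moved by less than the replicate spread except with a pseudocount of 1 (1.36), and lay between 1.78 and 2.52 when a library was left out. The zeros of Glyma.08G195000 and Glyma.07G022900 do not depend on these settings, but the call of Glyma.08G195000 does. Both of its PDL values are below 1 FPKM, so with a pseudocount of 1 its difference stays short of the log2 threshold. Its mean of 0.353 FPKM, which comes from PDL alone, leaves it untested with the filter at 1 FPKM. The 663 loci past the thresholds (373 higher, 290 lower) became 365 with a pseudocount of 1 (222, 143) and 1041 without a filter (586, 455), and 994 to 1328 when a library was left out (501 to 792 higher, 470 to 683 lower, 1184 without PDL-1, 994 without PDL-2, 1328 without PSL-1 and 1126 without PSL-2). Without PDL-1, 42.3% of the calls were higher in PDL, against 56.3% with all libraries. The 5 pathway loci past the thresholds (4 higher, 1 lower) became 3 with a pseudocount of 1 (0 lower), 2 with a filter at 1 FPKM, which leaves 81 to test (2 higher, 0 lower), and 4 to 6 when a library was left out (3 to 5 higher, 0 to 2 lower). The call of Glyma.19G182400 was also lost under the replicate block and without PDL-1, PSL-1 or PSL-2, and that of Glyma.20G238000 without PDL-1.

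Libraries of the same number showed no sign of pairing (correlation of their deviations −0.08 across 32686 loci). With the replicate block, 662 loci (369 higher, 293 lower) and 4 pathway loci (4 higher, 0 lower) passed, and the differences of Glyma.08G195100 and Glyma.08G218900 stayed at 2.20 and 2.15. With 2 libraries per group and no read counts, levels below 1 FPKM are the least certain.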
